A study of Mus musculus with 8 samples.

Results

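Proteasome subunit genes were examined in RNA-seq data of mouse testis. The members were the genes whose symbol is Psma, Psmb, Psmc or Psmd followed by a number, which gave 39 of the 19906 genes in the deposited table. Of these, 38 passed the filter on low counts and were among the 15787 genes tested, and Psmb11 did not pass it. The data comprised 8 testis libraries from mice aged 2 months, with 1 library per mouse, 4 labelled Tmem232-/- and 4 labelled Tmem232+/+. Tmem232 encodes a transmembrane protein, and the study asked what its loss does to sperm formation. The Tmem232-/- mice lacked exons 5 to 8 of the gene after CRISPR-Cas9 editing of fertilized C57BL/6 oocytes, and the labels name no treatment for either genotype. Total counts lay between 15428421 and 16350871 per library.

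The 26S proteasome degrades proteins that carry ubiquitin chains. Its 20S core is a barrel of alpha and beta rings with the proteolytic sites inside, and its 19S cap binds ubiquitin, removes it and unfolds the substrate with a ring of ATPases. Male germ cells replace some parts of this machine, with Psma8 taking the place of Psma7 in the alpha ring from meiosis onward, and they need it for meiosis and for the removal of histones from the spermatid nucleus.

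The Tmem232 count was higher, not lower, in the libraries labelled Tmem232-/-. It stood at 148, 132, 123 and 122 CPM there (CPM is the count scaled to the TMM-adjusted library size) and at 111, 106, 108 and 109.9 CPM in the Tmem232+/+ libraries, a log2 fold change of 0.27 ± 0.072 (SE; edgeR adjusted p = 0.0335, n = 4 and 4). A gene count sums reads over all exons, so it did not check the deletion, and each direction given here follows the labels. The paper reports that testes of its Tmem232-/- mice lacked TMEM232 protein. The call was lost without Tmem232-/- replicate 1 or 2 or Tmem232+/+ replicate 2 or 4, with adjusted p-values from 0.0858 to 0.0892. Among 11 lists of cell type markers, the median difference was largest for late germ cells. All 8 round spermatid markers and all 10 elongating spermatid markers rose in Tmem232-/- by label. Of the other lists, spermatogonia had 3 of 8 markers lower, spermatocytes 1 of 8, peritubular myoid cells 2 of 5 and lymphocytes 1 of the 4 tested, which DESeq2 did not call. Sertoli, macrophage, endothelial and red blood cell markers had none called in edgeR or DESeq2. Leydig cell markers had none of 6 called in edgeR, where 5 passed an unadjusted p under 0.05, and DESeq2 called Star and Lhcgr as higher. The elongating spermatid markers summed to between 1330 and 2204 CPM there and to between 339 and 680.5 CPM in the Tmem232+/+ libraries, where Prm1, the gene of protamine 1, lay between 1.64 and 7.54 CPM. Protamine transcripts are known to be abundant in adult testis, and Prm1 was low for that tissue in the Tmem232+/+ libraries, the level against which spermatid genes are given as higher. In RNA of a whole tissue, a lower number of cells of a type and less RNA per cell cannot be told apart.

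At an adjusted p under 0.05 in edgeR, Psma6 alone of the 38 proteasome subunit genes tested was higher in the libraries labelled Tmem232-/-. No member was lower. Of all genes tested, 10.3% were higher and 1.46% lower. The share lower rests on 230 genes, a count that ranged from 37 without Tmem232+/+ replicate 1 to 356 without Tmem232-/- replicate 4. At an unadjusted p under 0.05 there were 4 members, Psma6, Psmd10, Psmc2 and Psmd1, while 25.1% of all genes tested passed that limit. DESeq2 gave Psma6 as higher and Psmd1 as lower, beside 1815 higher and 220 lower of the 19906 genes in the deposited table. That total includes genes without counts, which DESeq2 could not call. The median log2 fold change was -0.09 over the 38 members and -0.05 over all genes. With a library left out, the members' median ranged from -0.098 without Tmem232+/+ replicate 2 to -0.035 without Tmem232+/+ replicate 1. That of all genes ranged from -0.056 without Tmem232-/- replicate 3 to -0.0067 without Tmem232+/+ replicate 1. Values below 0 were found for 32 members, a share of 84.2% beside 60.8% of all genes tested. This count was 24 without Tmem232+/+ replicate 3 and 25 without Tmem232+/+ replicate 1, and 22 members lay below the median of all genes. The difference between the members' median and that of all genes was -0.03 on the log2 scale. The members' median level itself had an SD of 0.058 between libraries of a genotype. That SD describes single libraries and is not the error of this difference. With a library left out, the difference ranged from -0.054 without Tmem232+/+ replicate 2 to -0.0038 without Tmem232-/- replicate 2. It was -0.074 in limma on log2(FPKM + 1) with no filter. Summed over the 39 genes, the level was 4891 ± 119.7 CPM in the libraries labelled Tmem232-/- against 5009 ± 166 CPM in the Tmem232+/+ libraries (SD, n = 4 each), and the ranges overlapped.

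**Figure D1:**
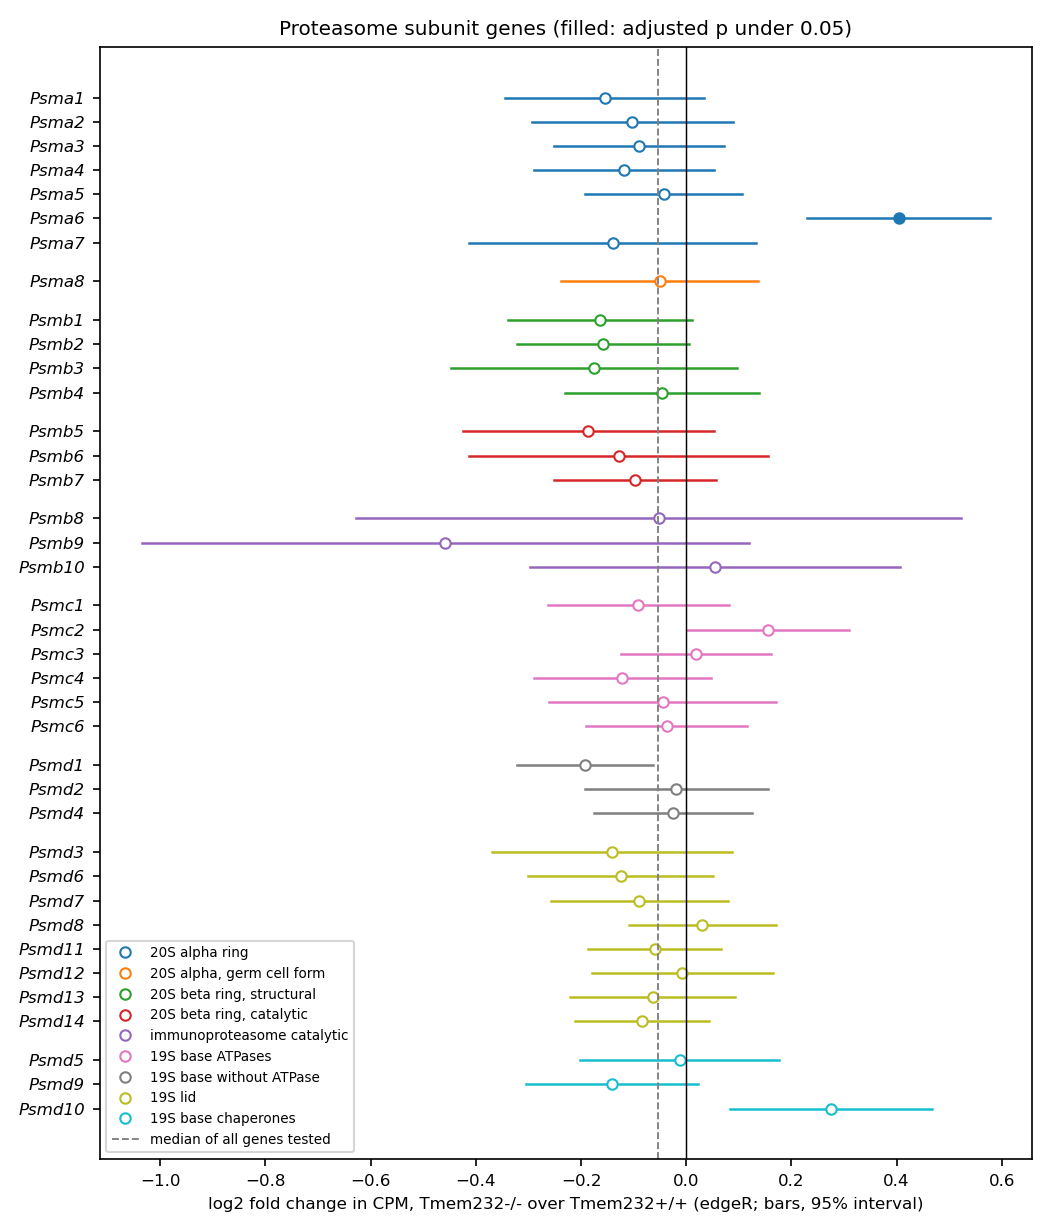
Log2 fold change (x axis) of each of the 38 tested proteasome subunit genes, grouped and coloured by role, with the 95% interval as a bar. The filled point is Psma6 at 0.40, and the dashed line marks the median of all genes tested at -0.05.

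The genomic sequence before the starts of Psma6 is shown because this gene carries the clearest difference between the genotypes. Psma6 (gene ID 26443) encodes an alpha ring subunit and lies on the plus strand of chromosome 12 from 55384222 to 55418459 (GRCm38.p6). RefSeq gives 2 promoter windows for it, and GENCODE vM21 gives 4 transcripts. The protein-coding transcript Psma6-204 has its first exon at chr12:55384222-55384327. The protein-coding transcript Psma6-201 starts 14553 bases further on, at chr12:55398775-55398991, and the 5 exons between the first and the last have the same bounds in both. Their last exons start at 55418237 and end at 55418310 in Psma6-204 and at 55418454 in Psma6-201. The lines below give 150 bases upstream of each RefSeq start, from 200 to 51 bases before it, 5′ to 3′ on the plus strand, with matches to CCGGAAG, the core bound by ETS family factors, in capitals.
Psma6 upstream start, chr12:55384022-55384171: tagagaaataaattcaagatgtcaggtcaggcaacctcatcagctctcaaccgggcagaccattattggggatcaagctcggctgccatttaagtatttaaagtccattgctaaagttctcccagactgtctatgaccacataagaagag
Psma6 downstream start, chr12:55398625-55398774: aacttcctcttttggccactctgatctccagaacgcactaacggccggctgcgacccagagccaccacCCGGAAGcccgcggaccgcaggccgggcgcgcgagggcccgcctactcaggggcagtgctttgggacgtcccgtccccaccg

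The 2 windows differ in composition. Over the full 300 bases of each window, 250 before the start and 50 after it, G and C made up 46.7% at the upstream start and 65% at the downstream start, and the dinucleotide CG occurred 3 and 22 times. The median over all 32851 RefSeq windows was 52.7%. The downstream window held 3 matches to CCGGAAG on either strand and the upstream window none. This motif was chosen after the sequences were seen.

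The other promoter windows allow the same description. RefSeq windows were matched for 32 of the 39 members, 34 windows in all, and those of Psma8, Psmb1, Psmb2, Psmb7, Psmc3, Psmd3 and Psmd7 were not matched. CCGGAAG or its reverse complement stood in 11 of the 34 windows (32.4%), which belong to 10 genes, Psma6 among them, and in 8.86% of all windows. The median share of G and C was 56% over the 34 windows and 52.7% over all windows. The part of composition in the motif counts was not tested. The letters CCAAT, searched on both strands, stood in 13 windows (38.2%) beside 37.4% of all windows. Nfe2l1, the transcription factor that raises proteasome genes when degradation is impaired, acts through antioxidant response elements with the core TGACNNNGC. This core, or its reverse complement, stood in 5 windows (14.7%), beside 12.4% of all windows, and is printed because it marks the members that hold it. No match to any of these 3 motifs overlapped a match to another. Each line gives the core, or for Psmc6 and Psmd12 its reverse complement, in capitals with up to 10 bases on either side, on the strand of the gene, from GRCm38.p6.
Psmb5, minus strand, chr14:54618024-54618052: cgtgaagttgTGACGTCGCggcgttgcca
Psmb6, plus strand, chr11:70525338-70525366: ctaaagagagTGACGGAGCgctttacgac
Psmc6, plus strand, chr14:45329587-45329615: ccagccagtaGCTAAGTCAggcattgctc
Psmd12, plus strand, chr11:107479278-107479299: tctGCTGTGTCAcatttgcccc
Psmd9, plus strand, chr5:123228149-123228177: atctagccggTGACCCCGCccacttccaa

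The 5 genes with this core had log2 fold changes of -0.19 for Psmb5, -0.13 for Psmb6, -0.04 for Psmc6, -0.01 for Psmd12 and -0.14 for Psmd9, and none passed the test in edgeR. Nfe2l1 itself had a log2 fold change of -0.11 ± 0.087 (SE; adjusted p = 0.462).

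The alpha ring forms the gate of the 20S core and holds 7 of the members. Its gene Psma6 was the member that rose. Its level was 144, 153, 144 and 146 CPM in the libraries labelled Tmem232-/- against 123, 108, 96.5 and 115 CPM in the Tmem232+/+ libraries, so that each of the former lay above each of the latter. The fold change was 1.32 (95% interval 1.17 to 1.49), a log2 fold change of 0.40 ± 0.079 (SE; edgeR adjusted p = 0.00479, n = 4 and 4). An exact permutation test of CPM gave a two-sided p of 0.029, the smallest that 4 against 4 libraries allow. Over all genes tested, 11.8% had each library labelled Tmem232-/- above each Tmem232+/+ library, and among the members there were 2, Psma6 and Psmd10. No other annotated gene held a stretch of 100 bases or more with at least 95% identity to a Psma6 transcript, whereas 9 other members had such a match of 500 bases or more, mostly in processed pseudogenes. Reads of these 9 genes, Psma2, Psma3, Psma4, Psma5, Psmb3, Psmb5, Psmc1, Psmd2 and Psmd11, may be shared with the copies, which makes their values uncertain. Psmb7, Psmb8, Psmb9, Psmc3, Psmd1 and Psmd13 overlap another gene in GENCODE vM21, from which reads cannot be told apart without strand.

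The remaining alpha genes were not called and had values below 0. They ranged from -0.15 for Psma1 to -0.04 for Psma5 on the log2 scale, with adjusted p-values from 0.294 to 0.730 in edgeR. Psma6 departed from its ring in level per transcript length (FPKM). The ratio of Psma6 to the median of Psma1 to Psma5 was 2.01, 2.54, 2.12 and 1.99 in the libraries labelled Tmem232-/- against 1.66, 1.51, 1.14 and 1.65 in the Tmem232+/+ libraries. This ratio was chosen after the values were seen and is a description. The genes that flank Psma6, also chosen after their values were seen, were near 0, with log2 fold changes of 0.01 for 1110008L16Rik and -0.14 for Nfkbia.

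Psma6 also differed in the transcript length implied by its count and FPKM. FPKM divides a count by the length of the transcripts assigned to the gene, so count over FPKM, centred on genes with 1 transcript, gives a mean length per library on a relative scale. This measure was chosen after the data were seen. For Psma6 it was 787, 788, 790.5 and 791 bases in the libraries labelled Tmem232-/- against 803, 805, 802 and 804 bases in the Tmem232+/+ libraries, with no overlap. The change was -1.84% (log2 ratio -0.03 ± 0.0020, SE; limma adjusted p = 0.00543, n = 4 and 4). Of 7342 genes with several transcripts, 0.368% were shorter and 0.232% longer at an adjusted p under 0.05. Among the 23 members in this test, Psma6 was called and the next smallest adjusted p was 0.766. Psmd11 had a larger change, -2.19%, but its genotypes overlapped and it was not called (limma adjusted p = 0.994). In GENCODE the transcripts Psma6-201, Psma6-202, Psma6-203 and Psma6-204 have 1042, 914, 520 and 787 bases, in that order. The implied lengths are on a relative scale and were not matched to any of them. Reads at each start were not analysed here, and which transcript differed was not tested.

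**Figure D2:**
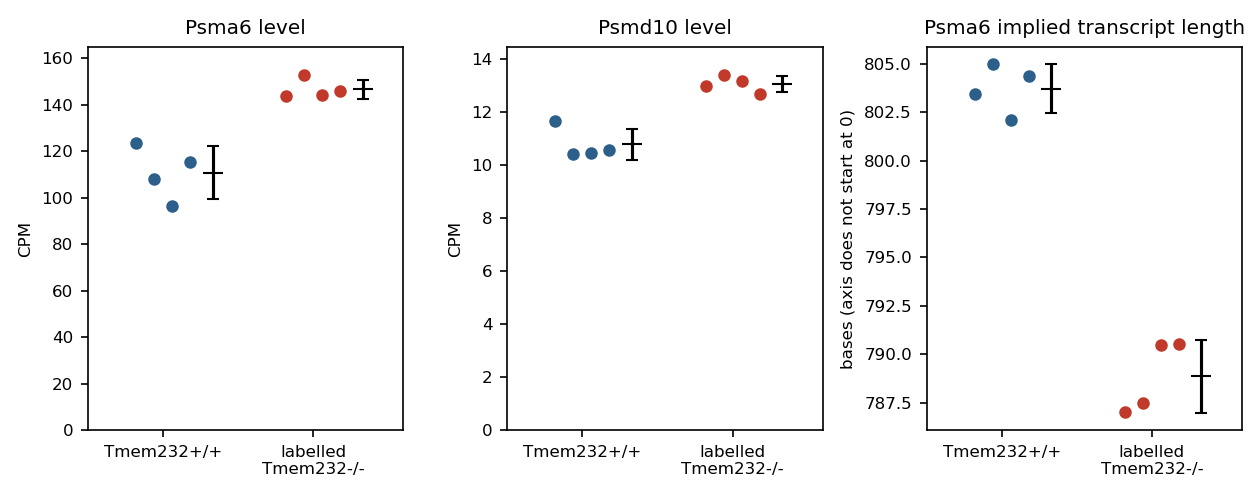
Level in CPM of Psma6 (left) and Psmd10 (middle) and the implied transcript length of Psma6 in bases (right) in each library, with the mean and SD over 4 libraries per genotype beside the points. The genotypes do not overlap in any panel, and the length axis does not start at 0.

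The spermatid markers moved in the same direction as Psma6. The round spermatid markers, which include the acrosome gene Acrv1, summed to 435 to 599 CPM in the libraries labelled Tmem232-/- against 176 to 287 CPM in the Tmem232+/+ libraries. Within the Tmem232+/+ genotype the order was different, since replicate 3 had the highest summed level of these markers and the lowest Psma6 level. No marker of either list was at 0. Of the Leydig cell markers, 5 of 6 had values above 0, the median was 0.47 on the log2 scale, and they summed to 398 to 566 CPM against 252 to 433 CPM. The part of cell composition in the Psma6 difference was not tested.

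Psma8, the alpha subunit of germ cells, did not pass the test. It stood at 314, 249, 269 and 245 CPM in the libraries labelled Tmem232-/- against 266, 273, 296 and 279.6 CPM in the Tmem232+/+ libraries. The groups overlapped, and the highest and the lowest library were both labelled Tmem232-/-. The log2 fold change was -0.05 ± 0.085 (SE; edgeR adjusted p = 0.749), with a 95% interval from -0.24 to 0.14. Psma7, the form in somatic cells and early germ cells, stood at 39.9, 31.9, 36.7 and 50.4 CPM against 43.7, 43.5, 47.8 and 40.0 CPM, a log2 fold change of -0.14 ± 0.12 (adjusted p = 0.517). With a library left out, it ranged from -0.26 without Tmem232-/- replicate 4 to -0.05 without Tmem232-/- replicate 2.

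Per transcript length, Psma8 was the more abundant of the pair in every library. It took 80.3%, 80.2%, 79.2% and 71.7% of their summed FPKM in the libraries labelled Tmem232-/- against 75.9%, 76.5%, 76.2% and 78.4% in the Tmem232+/+ libraries. The share was lowest in Tmem232-/- replicate 4, which had the highest Psma7 level of all 8 libraries, and the genotypes overlapped.

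**Figure D3:**
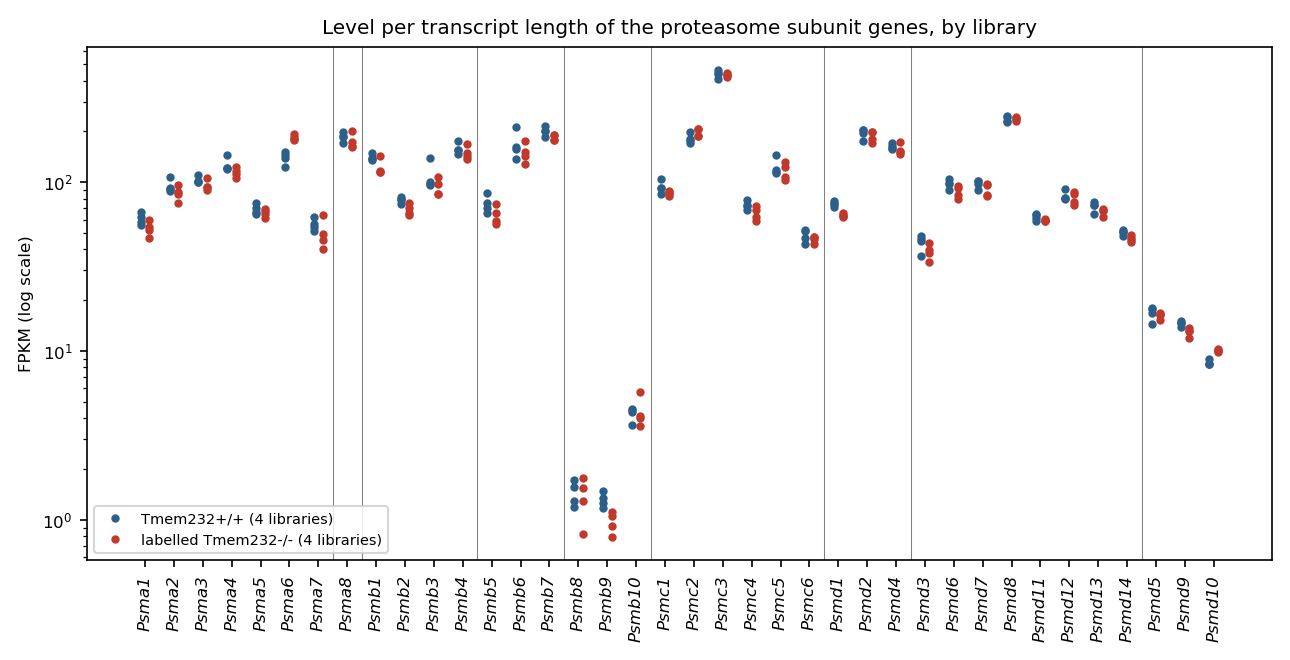
FPKM (log axis) of 38 proteasome subunit genes, with 1 point per library and vertical lines between role groups. Psmc3 is the highest and the immunoproteasome genes Psmb8, Psmb9 and Psmb10 are the lowest, while Psmb11, at 0 in 6 of 8 libraries, is left out.

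The beta ring holds the proteolytic sites. Psmb5, Psmb6 and Psmb7 encode the subunits with chymotrypsin-like, caspase-like and trypsin-like activity. None of the 3 was called. Psmb5 had the lowest value of the group at -0.19 ± 0.11 (SE; edgeR adjusted p = 0.320), and Psmb7 had the highest at -0.10 ± 0.070 (adjusted p = 0.416). Psmb6 stood at 134, 124, 113 and 151 CPM in the libraries labelled Tmem232-/- against 139.5, 115, 179 and 137 CPM in the Tmem232+/+ libraries, a wide and overlapping spread. The structural subunits Psmb1 to Psmb4 ranged from -0.18 for Psmb3 to -0.05 for Psmb4, and none was called.

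Psmb1 passed the threshold with 1 library left out and not otherwise. It stood at 102, 99.5, 102 and 123 CPM in the libraries labelled Tmem232-/- against 122, 113, 125 and 117 CPM in the Tmem232+/+ libraries, with a log2 fold change of -0.16 (edgeR adjusted p = 0.232). Leaving out Tmem232-/- replicate 4 gave -0.23 and an adjusted p of 0.0463. In that fit 356 of all genes were called lower, against 230 in the main fit.

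Psmb8, Psmb9 and Psmb10 replace these catalytic subunits in the immunoproteasome, which interferon induces and immune cells carry, and which makes peptides suited to presentation on MHC class I. Their levels were low in all libraries. Psmb8 lay between 0.83 and 1.78 FPKM, Psmb9 between 0.79 and 1.48 FPKM and Psmb10 between 3.58 and 5.71 FPKM, while Psmb5, Psmb6 and Psmb7 lay between 56.3 and 216 FPKM. The immunoproteasome genes took 1.66 ± 0.13% of the summed FPKM of all 6 genes in the libraries labelled Tmem232-/- against 1.57 ± 0.20% in the Tmem232+/+ libraries (SD, n = 4 each), with overlapping ranges.

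None of the immunoproteasome genes was called in edgeR or DESeq2. Psmb9 had the lowest value of all members, -0.46 ± 0.26 on the log2 scale (SE; edgeR adjusted p = 0.316), with a 95% interval from -1.03 to 0.12 and 8 to 19 counts per library, and it shares 212 bases of exon with Tap1 in GENCODE vM21, although the positions in the deposited table do not overlap. Psmb8 had -0.05 ± 0.26 and Psmb10 had 0.06 ± 0.16. Psmb11, the subunit of thymic epithelium, had 2 counts in Tmem232-/- replicate 4, 1 count in Tmem232+/+ replicate 3 and 0 in the other 6 libraries, where 3 counts would correspond to 0.182 to 0.200 CPM, a limit that covers counting error alone.

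The antigen presentation and interferon list, 15 genes such as Tap1 and B2m, had no gene called in edgeR or DESeq2, with 3 at an unadjusted p under 0.05, beside 25.1% of all genes tested. Its median log2 fold change was -0.23 beside -0.05 over all genes, with 14 of 15 genes below 0. In 3 of the 15, Tap1, H2-K1 and H2-D1, each library labelled Tmem232-/- lay below each Tmem232+/+ library, beside 6.88% of all genes, and reads of the similar genes H2-K1 and H2-D1 may be shared. The macrophage markers had 0 of 8 called in either tool and 0 at an unadjusted p under 0.05, and summed to 89.3 to 114 CPM in the libraries labelled Tmem232-/- against 85.9 to 118 CPM in the Tmem232+/+ libraries. Of 8 lymphocyte markers, 4 were tested and Cd3e was lower in edgeR, with Cd3g at 0 in 4 libraries, Cd79a at 0 in 3 and Cd8a at 0 in 1. The part of immune cells in the immunoproteasome levels was not tested.

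The 19S base carries the hexamer of ATPases that unfolds the substrate. None of its 6 genes was called. Psmc2 had the highest value, 0.16 ± 0.070 (SE; edgeR adjusted p = 0.194), with 344, 308, 308 and 328 CPM in the libraries labelled Tmem232-/- against 293, 267, 310.4 and 286 CPM in the Tmem232+/+ libraries. Its groups overlapped through Tmem232+/+ replicate 3. Psmc4 had the lowest value of the group, -0.12 ± 0.076 (adjusted p = 0.354). Psmc3 was the most abundant member per length, at 431 ± 10.7 FPKM in the libraries labelled Tmem232-/- against 435 ± 22.5 FPKM in the Tmem232+/+ libraries (SD, n = 4 each).

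Psmd1, Psmd2 and Psmd4 are the members of the base that are not ATPases, where Psmd1 and Psmd2 are scaffolds and Psmd4 is a ubiquitin receptor. Psmd1 stood at 204, 197, 205 and 189 CPM in the libraries labelled Tmem232-/- against 224, 222, 232 and 229.9 CPM in the Tmem232+/+ libraries, so that the groups did not overlap. Its log2 fold change was -0.19 ± 0.059 (SE), which missed the threshold in edgeR with an adjusted p of 0.0581 and passed it in DESeq2 with 0.0306. Over all genes tested, 6.88% had each library labelled Tmem232-/- below each Tmem232+/+ library, and among the members there were 2, Psmd1 and Psmd14. Psmd2 had the highest value of this group, -0.02 ± 0.079.

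The lid removes the ubiquitin chain, and Psmd14 is its deubiquitinase. None of its 8 genes was called. They ranged from -0.14 ± 0.10 for Psmd3, a scaffold of the lid (adjusted p = 0.430), to 0.03 ± 0.064 for Psmd8 (adjusted p = 0.797). Psmd14 stood at 66.1, 60.9, 63.2 and 66.2 CPM in the libraries labelled Tmem232-/- against 67.0, 68.7, 67.9 and 68.1 CPM in the Tmem232+/+ libraries, a log2 fold change of -0.08 ± 0.058 (adjusted p = 0.402). The groups did not overlap, but the gap between them was small.

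Psmd5, Psmd9 and Psmd10 encode chaperones that assemble the base and leave the finished particle. They were less abundant than the constitutive subunits, between 8.54 and 16.7 FPKM on average in the Tmem232+/+ libraries. Psmd10, also known as gankyrin, stood at 13.0, 13.4, 13.2 and 12.7 CPM in the libraries labelled Tmem232-/- against 11.7, 10.4, 10.4 and 10.6 CPM in the Tmem232+/+ libraries, with no overlap. Its log2 fold change was 0.28 ± 0.087 (SE; edgeR adjusted p = 0.0670). Leaving out Tmem232+/+ replicate 1 gave 0.36 and an adjusted p of 0.0390. Psmd9 went the other way without passing the test, at -0.14 ± 0.074 (adjusted p = 0.269).

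Libraries of a genotype differed in their beta genes along with other short transcripts. The median deviation of the 7 beta genes Psmb1 to Psmb7 from their genotype's mean, in log2 CPM, was 0.08, -0.09, -0.12 and 0.18 in the libraries labelled Tmem232-/- against 0.04, -0.14, 0.15 and -0.04 in the Tmem232+/+ libraries. Over 574 genes with an implied length under 800 bases it was 0.1, -0.12, -0.15 and 0.16, and 0.02, -0.21, 0.25 and -0.06. For the 3150 genes of 3000 bases or more, the sign was reversed in 7 of 8 libraries. The 7 alpha ring genes had 0.06, -0.1, -0.02 and 0 in Tmem232-/- by label, where the genes of 800 to 1200 bases had 0.08, -0.08, -0.09 and 0.08. Their values under Tmem232+/+ were 0, -0.03, 0.13 and -0.06 against 0.01, -0.12, 0.16 and -0.04. Psma6, with 796 bases, deviated by -0.19 in Tmem232+/+ replicate 3, the library in which short transcripts were highest. Without that library, members that were not called moved in both directions. Psmb3 was at -0.01, Psmb5 at -0.08, Psmb7 at -0.04, Psma1 at -0.08 and Psmc4 at -0.06, nearer to 0, whereas Psmd3 was at -0.19 and Psmc2 at 0.22 (adjusted p = 0.0536), farther from it. Psmd3 was at -0.04 and Psmd9 at -0.07 without Tmem232+/+ replicate 1.

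**Figure D4:**
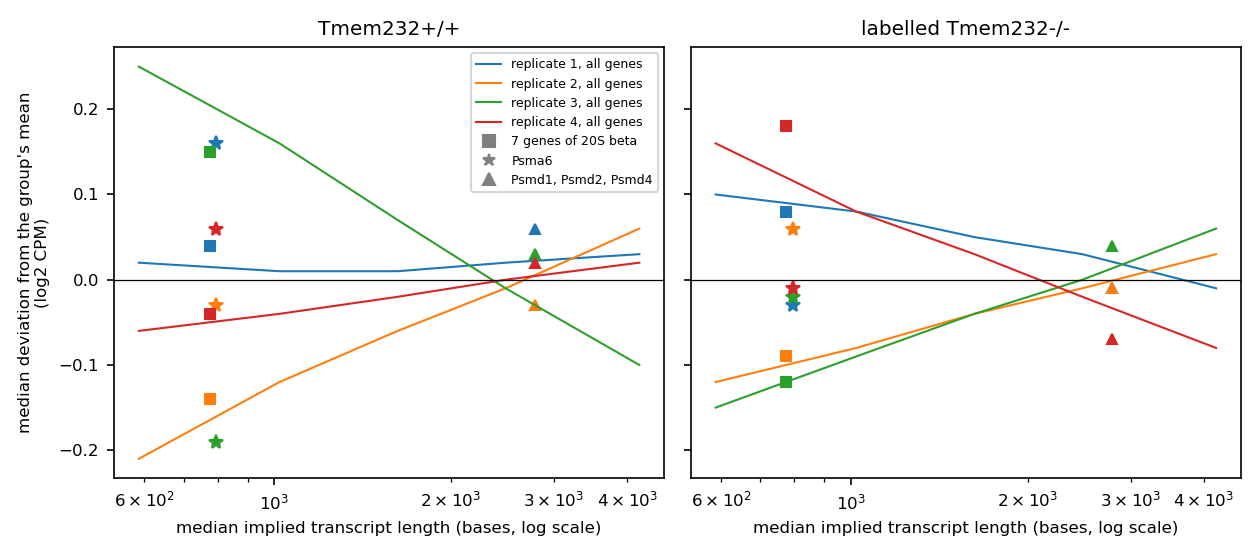
Median deviation from the genotype's mean (log2 CPM) against implied transcript length (bases, log axis) for all genes (lines), the 7 beta genes (squares), Psma6 (stars) and Psmd1, Psmd2 and Psmd4 (triangles), 1 colour per replicate. Squares follow the lines, while the star of Tmem232+/+ replicate 3 lies at -0.19, below its line.

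The other genes of the pathway were a list of 40 activators, assembly factors, shuttles, ubiquitin genes and regulators. In edgeR, 4 were higher and none lower in Tmem232-/- by label, beside 10.3% and 1.46% of all genes tested. At an unadjusted p under 0.05 there were 6, beside 25.1% of all genes tested. DESeq2 gave 5 higher and none lower, beside 1815 higher and 220 lower of the 19906 genes in the deposited table, which include genes without counts. The median over the list was -0.05, as over all genes.

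Psmf1 encodes the inhibitor PI31, which binds the 20S core. It stood at 139, 118, 105 and 133 CPM in the libraries labelled Tmem232-/- against 83.2, 79.6, 103 and 86.6 CPM in the Tmem232+/+ libraries, without overlap. The log2 fold change was 0.49 ± 0.10 (SE; edgeR adjusted p = 0.00835). The activators Psme1 to Psme4 were not called, among them Psme4, the gene of PA200, which takes part in histone removal in spermatids, at 0.33 ± 0.21 (adjusted p = 0.366).

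The largest differences in this list were in Ubqlnl and Ddi1. They were grouped with shuttle genes, whose products carry ubiquitinated proteins to the proteasome, and a shuttle role of these genes was not tested. Ubqlnl, a ubiquilin-like gene, stood at 22.8, 19.7, 12.7 and 19.4 CPM in the libraries labelled Tmem232-/- against 1.81, 0.727, 2.53 and 2.33 CPM in the Tmem232+/+ libraries, a log2 fold change of 3.33 ± 0.29 (SE; edgeR adjusted p = 2.81e-05). Ddi1 stood at 94.3, 99.7, 88.8 and 79.4 CPM against 47.0, 33.8, 41.7 and 45.9 CPM, a log2 fold change of 1.10 ± 0.11 (adjusted p = 5.27e-05). Both were separated between the genotypes.

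Ngly1 encodes the deglycosylase that processes Nfe2l1. It stood at 189.7, 189.6, 184 and 159.7 CPM in the libraries labelled Tmem232-/- against 145, 134, 121 and 146 CPM in the Tmem232+/+ libraries, a log2 fold change of 0.40 ± 0.084 (SE; edgeR adjusted p = 0.00733). These 4 genes were higher in the genotype in which the spermatid markers were higher. Within the genotypes, the order of the libraries in Ubqlnl matched that of the summed round spermatid markers in both. Psmf1 matched it in Tmem232+/+ and not in Tmem232-/-, and Ddi1 and Ngly1 matched it in neither. Against the summed elongating spermatid markers, Psmf1 matched the order in both genotypes, and Ubqlnl in Tmem232+/+ and not in Tmem232-/-. Ddi1 and Ngly1 matched that order in neither genotype. The part of cell composition in the 4 genes was not tested.

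**Figure D5:**
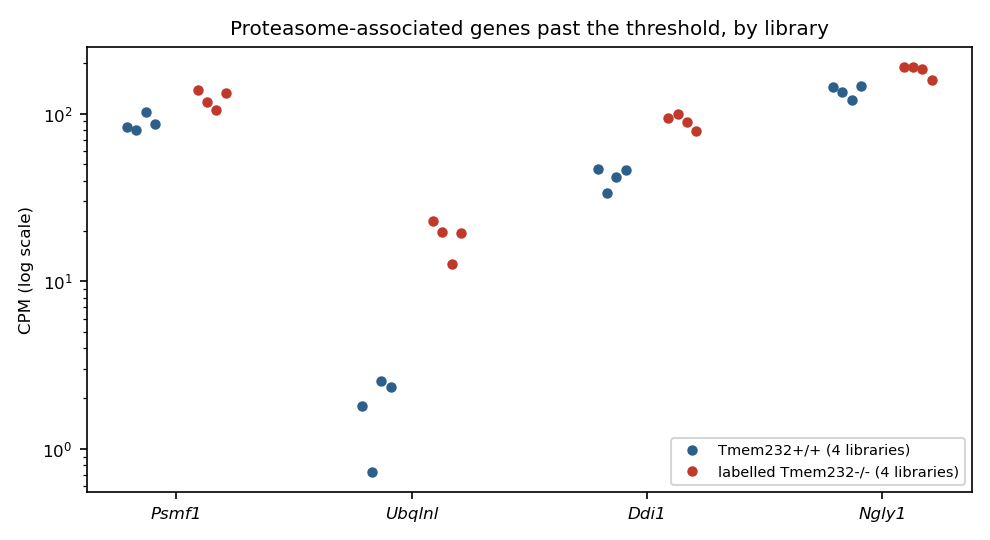
CPM (log axis) of the 4 called proteasome-associated genes, with 1 point per library and the 2 genotypes in different colours. In each gene the 4 libraries labelled Tmem232-/- lie above the 4 Tmem232+/+ libraries.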

How the data were processed

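Testis RNA of 8 mice was made into libraries with a TruSeq RNA kit, not stated to keep strand, and sequenced in pairs of reads. The authors mapped reads to GRCm38.p6 with HISAT and Bowtie2 and counted genes with StringTie and featureCounts, versions not given in the sources used here. The deposited estimated counts are not normalized, and those of the members are whole numbers. The deposited FPKM divide counts by transcript length and library size. The authors' log2 fold changes, p-values and q-values from DESeq2 in the same table were not used. Columns of means were not used.

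Counts were rounded and tested in R 4.3.3 with edgeR 4.0.16 (default filter on low counts, TMM, quasi-likelihood test) without covariates, with Benjamini-Hochberg adjustment over 15787 genes. Implied lengths needed at least 200 counts and 5 FPKM in every library and were compared with limma 3.58.1. Close copies were searched with BLAST 2.17.0. Alternatives used DESeq2 1.42.0, limma on log2(FPKM + 1), other scalings and filters, and each library left out. Both tests were tested on simulated data. The edgeR test called 97% of genes changed by 1 on the log2 scale and 51% of those changed by 0.3. The simulated counts had the same dispersion for every gene, so these shares do not hold for genes that vary more between libraries. A member with a difference of 0.3 or less may thus go uncalled. So may a larger one where counts are low or libraries vary, as for Psmb9 at -0.46 ± 0.26 (SE). For the length test, 52 genes were called where 100 had been changed. Promoter sequences are those of RefSeq.

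Named genes were the called members, Psma7, Psma8, Psmb5 to Psmb11, the members with the highest and lowest log2 fold change of each role group, called associated or antigen presentation genes, and Tmem232. Members and lists were chosen with earlier results of these data known. A gene of the associated list is not reported here, and the counts and median of that list are without it. With 4 mice per genotype, p-values measure the spread between these mice. The replicate numbers did not pair the libraries.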

Additional observations from a re-analysis of the deposited data

Results flagged for a closer look

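In 6 of 88 groups of 4 libraries, over the members and the named genes, the CPM of a library lay far from the other 3. Chance would mark about 1 in 20 groups, or 4.4 of 88. Psmb1 stood at 123 CPM in Tmem232-/- replicate 4 and between 99.5 and 102 CPM in the other 3 libraries. Psmd2 stood at 477 CPM in Tmem232+/+ replicate 3 and between 549 and 560 CPM in the others. Psmd10 stood at 11.7 CPM in Tmem232+/+ replicate 1 and between 10.4 and 10.6 CPM in the others. Psmb10 stood at 3.99 CPM in Tmem232+/+ replicate 4 and between 4.94 and 5.11 CPM in the others. Psmb11 stood at 0.123 CPM in Tmem232-/- replicate 4 and at 0.0633 CPM in Tmem232+/+ replicate 3, with 0 in the other libraries of each genotype, from 2 counts and 1 count. Where the other libraries are at 0, any count is marked, so the Psmb11 groups do not bear on the comparison with chance.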

How the results depend on the processing

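Psma6 stayed higher under all 19 alternatives, with log2 fold changes from 0.37 to 0.50 and adjusted p-values from 3.69e-06 to 0.0234, and the 4 associated genes stayed higher under all 19. The count of members higher was 2, Psma6 and Psmd10, with DESeq2 size factors, with no filter on low counts and in the 3 fits on FPKM. With a library left out it was 1 to 2. Higher calls over all genes were 1702 of 15787 with DESeq2 size factors and 1824 of 19874 with no filter. The fits on FPKM gave 1418 and 1412 of 13652, and 1525 of 19903 with no filter. The count of members lower was 1, Psmd1, in DESeq2, with library size alone and in the 3 fits on FPKM. With a library left out it was 0 to 1 (Psmb1 without Tmem232-/- replicate 4). Lower calls over all genes were 220 in DESeq2, of the 19906 genes in the deposited table, and 415 of 15787 with library size alone, against 230 in the main fit. The fits on FPKM gave 473 and 474 of 13652, and 398 of 19903 with no filter. Other scalings and filters moved the median of all genes between -0.09 and 0.00, and that of the members between -0.12 and -0.04. With the replicate number as a block, members called stayed at 1 and 0, Psma6 had 0.41 and Psma8 -0.06, but the numbers did not pair the libraries, with correlations of -0.061, 0.072, -0.332 and -0.105, and Tmem232 was no longer called (adjusted p = 0.114).

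Signs of values near 0 turned for members that were not called. With a library left out, Psma8 ranged from -0.132 to 0.0108, Psmb6 from -0.22 to 0.0303, Psmb8 from -0.21 to 0.146, Psmb10 from -0.0765 to 0.131, Psmb4 from -0.0922 to 0.0366 and Psmd2 from -0.0517 to 0.0412. Psmd2 was 0.0043 in DESeq2, 0.00655 with DESeq2 size factors and 0.0259 with no filter. Psmd8 was -0.00287 with library size alone, and in the fits on FPKM -0.00258, or -0.00259 with a pseudocount of 0.1. The cause was not tested. The implied length of Psma6 kept adjusted p-values from 0.0125 to 0.0306 with a library left out. Counts per library were low for Psmb8, at 14 to 30, for Psmb9, at 8 to 19, and for Psmb11, at 0 to 2. Psmb10 had 62 to 103 counts. The effect of depth on these genes was not tested.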
